A study of Mus musculus with 2 samples.

Results

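The SR splicing factors and the Clk kinases that phosphorylate them were examined in RNA that was pulled down with tagged DNA-binding proteins from mouse Ba/F3 cells. The members are 10 genes, chosen by symbol: Srsf1, Srsf2, Srsf3, Srsf5, Srsf6, Srsf7, Srsf11, Tra2b, Clk1 and Clk4. They account for 55 of the 48876 transcripts counted and for 10 of 24117 gene symbols. The study used enChIP (engineered DNA-binding molecule-mediated chromatin immunoprecipitation) combined with RNA sequencing to look for RNAs held at telomeres. The 3xFN-Tel-TAL library came from Ba/F3 cells that stably express a TAL protein which recognizes telomere repeats and carries a FLAG tag and a nuclear localization signal. The 3xFNLDD library, the negative control, came from Ba/F3 cells that express a LexA protein with the same tag and signal, for which the mouse genome has no intended target.

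Both lines derive from Ba/F3, an IL-3-dependent hematopoietic line that the labels assign to the C3H strain, and both were crosslinked with formaldehyde and precipitated with an anti-FLAG antibody. There is 1 library per condition, made from 60 ng of RNA, so no difference here has a replicate check and no test between conditions was made. The intervals given below are 95% intervals for counting error only and take each read as independent. Reads made by PCR carry no identifiers here and can stem from 1 molecule, so the intervals can be too narrow. Total RNA of the cells before precipitation was not analysed here. The level of an RNA in the cells and its recovery in the pull-down therefore cannot be told apart, and neither can fewer cells holding an RNA and less RNA per cell.

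SR proteins bind exonic enhancers through RNA recognition motifs and recruit the splicing machinery through a domain rich in arginine and serine. Many SR genes limit their own output by including an extra exon with an early stop codon, a so-called poison exon, which sends the transcript to nonsense-mediated decay. Clk kinases phosphorylate the arginine- and serine-rich domains and release SR proteins from nuclear speckles. Transcripts of Clk1 and Clk4 are known to keep introns and stay in the nucleus, from which they can be spliced to completion when kinase activity falls.

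The 3xFNLDD library held 7206183 reads and the 3xFN-Tel-TAL library 9774844, so that 3 reads correspond to 0.416 and 0.307 RPM (reads per 1000000 reads of the library). Where a pair of counts is given below, the control comes first. Messages of hematopoietic and IL-3-responsive cells were present in both, with 583 and 1052 reads for Csf2rb, 751 and 849 for Csf2rb2, 176 and 483 for Gata2, and 17 and 68 for Il3ra. Ptprc, Spn and Myb had 44 to 70 reads in the control and 67 to 141 in the 3xFN-Tel-TAL library. Among markers of other cell types, Cd3e, Hba-a1, Col1a1, Col1a2 and Krt8 had 2 to 22 reads in each library and Pecam1 had 39 and 67. Il3ra (2.36 and 6.96 RPM) and Gata2 (24.4 and 49.4 RPM) were higher in 3xFN-Tel-TAL. Csf2rb2 (104 and 86.9 RPM) was lower there, as were the low counts of Hba-a1 (22 and 9 reads), Col1a1 (14 and 5 reads) and Col1a2 (11 and 4 reads). The part of such differences between the libraries in the values below was not tested.

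The members received 1279 reads in the control and 2414 in the 3xFN-Tel-TAL library. All 10 genes had a higher RPM in 3xFN-Tel-TAL, as did 72.8% of the 12517 gene symbols with 20 or more reads over both libraries. The log2 ratio of RPM (3xFN-Tel-TAL over 3xFNLDD, used throughout) ranged from 0.13 for Srsf2 to 0.95 for Clk1. Its median was 0.46 over the members and 0.37 over all gene symbols. The study used a fold of 1.4, by its methods a ratio of read counts, to list non-coding RNAs. Here 1.4 was applied to RPM ratios of genes, so the cut is not the same. It was passed by 5 of the 10 members, Clk1, Srsf5, Srsf6, Srsf1 and Srsf3, against a background of 41.1% of all gene symbols. The share was 42.8% of those with at least 100 reads, as all members had, so the group as a whole stood near the background. No member was below 1/1.4-fold, against 11.5% of all gene symbols, and none was above 2-fold, against 15%. The lower bound was above 0 for those 5 members, against 34.3% of all gene symbols. The 11.5%, 15% and 34.3% are shares of gene symbols with at least 20 reads and were not counted at 100 reads. Such shares can change with read number, so no excess or lack among the members is read from them. Every log2 ratio depends on how the libraries are scaled: with TMM, the trimmed-mean scaling of edgeR, each of them moved by -0.37. With TMM only Clk1 and Srsf5 were above 1.4-fold, against a background of 20.4%, no member was below 1/1.4-fold, against 22.4%, and Srsf2, Srsf7 and Srsf11 had log2 ratios below 0. For this reason each gene is also given relative to the median gene symbol, and that difference does not depend on the scaling.

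**Figure D1:**
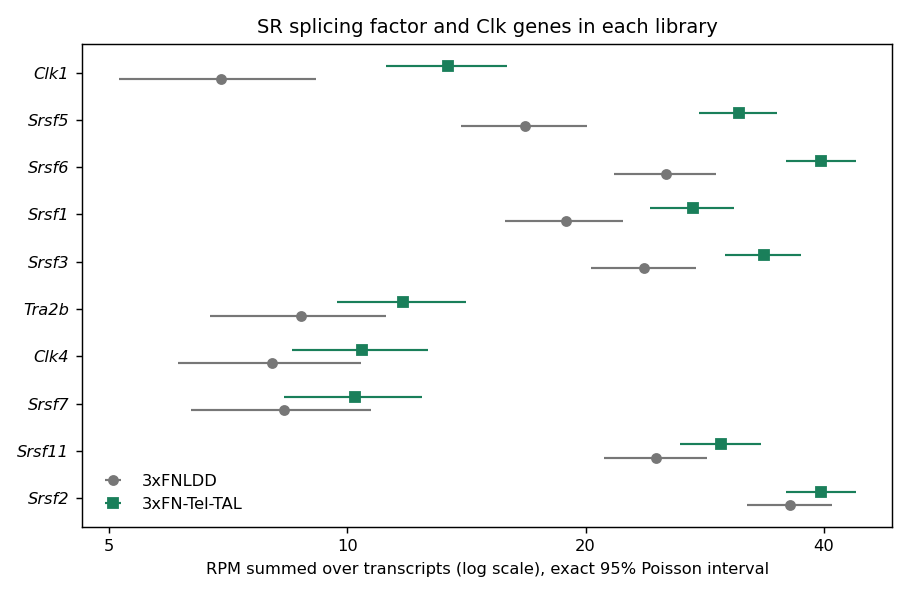
RPM of each member gene, summed over its transcripts, in 3xFNLDD (circles) and 3xFN-Tel-TAL (squares) on a log axis. Bars are exact 95% Poisson intervals. The squares lie to the right of the circles for all 10 genes, and the bars are clear of each other for Clk1, Srsf5, Srsf6, Srsf1 and Srsf3.

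Srsf5 encodes an SR protein that regulates alternative exons in many messages. The gene lies on chromosome 12 (82046491 to 82051494, forward strand), where all positions are those of GENCODE M1 on NCBIM37. Srsf5 had 121 reads (16.8 RPM) in the control and 305 reads (31.2 RPM) with 3xFN-Tel-TAL. The log2 ratio was 0.89 (95% interval 0.59 to 1.21), or 0.53 above the median gene symbol. Srsf5 was the only member whose lower bound exceeded 1.4-fold, which held for 10.1% of all gene symbols with at least 20 reads. That share was not counted for gene symbols with as many reads as the members.

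Its reads fell mostly on 4 transcripts of different kinds. The coding transcript Srsf5-202 had 47 and 128 reads, a log2 ratio of 1.01 (0.51 to 1.52). Srsf5-006, annotated as a target of nonsense-mediated decay, had 19 and 79 reads and a log2 ratio of 1.62 (0.88 to 2.42). It contains an exon of 1040 bases (82049116 to 82050155), of which 966 lie in an intron of Srsf5-202 and the rest in the exon that follows. The retained-intron transcripts Srsf5-012 (34 and 58 reads) and Srsf5-007 (11 and 25 reads) had log2 ratios of 0.33 (-0.30 to 0.99) and 0.74 (-0.33 to 1.92). The coding and decay forms of Srsf5 thus both passed 1.4-fold by their lower bounds, while the intervals of both retained-intron forms included 0. The deposited counts assign reads to single transcripts, and how reads that match several transcripts were treated is not given in the sources used here. Every split between transcripts of a gene below carries that uncertainty, which counting intervals do not cover.

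Srsf6, on the forward strand of chromosome 2 (162757264 to 162762857), encodes another SR protein of the same subfamily. Srsf6 had 182 reads (25.3 RPM) in the control and 388 (39.7 RPM) with 3xFN-Tel-TAL, for a log2 ratio of 0.65 (0.39 to 0.91), 0.28 above the median gene symbol. Only a pair of Srsf6 transcripts was listed. The coding Srsf6-001 had 64 and 168 reads, a log2 ratio of 0.95 (0.53 to 1.39). The most-read form, Srsf6-002, is annotated as a processed transcript and holds an additional exon of 268 bases (162758551 to 162758818) within an intron of Srsf6-001. It had 118 and 220 reads and a log2 ratio of 0.46 (0.13 to 0.79). Coding reads made up 35.2% (28.2 to 42.6) of Srsf6 reads in 3xFNLDD and 43.3% (38.3 to 48.4) in 3xFN-Tel-TAL, and these intervals overlap.

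Srsf3, on the forward strand of chromosome 17 (29169618 to 29180311), encodes the smallest SR protein, which also serves as an adaptor for mRNA export. Srsf3 had 171 reads (23.7 RPM) in the control and 328 (33.6 RPM) with 3xFN-Tel-TAL, and the log2 ratio of 0.50 (0.23 to 0.78) was 0.13 above the median gene symbol. Of these reads few belonged to the full coding form: 4.68% (2.04 to 9.01) in 3xFNLDD and 7.93% (5.24 to 11.4) in 3xFN-Tel-TAL. The large majority lay on Srsf3-002, a form with a poison exon, and on the retained-intron transcript Srsf3-003. The poison exon of Srsf3-002 is 456 bases long (chromosome 17, 29176399 to 29176854) and lies wholly within an intron of Srsf3-001. To show what this exon does to the message, the coding sequences of both forms are printed around the point where they part, from base 313 to base 375 counted from the start codon. Lower case marks the 30 bases before that point and capitals the 33 bases from the first base that differs. In Srsf3-002 the capitals run to the last base of its coding sequence and end in the stop codon TGA, whereas Srsf3-001 reads on to a coding length of 495 bases.
Srsf3-001: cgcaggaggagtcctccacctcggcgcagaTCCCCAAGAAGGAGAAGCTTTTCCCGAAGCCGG
Srsf3-002: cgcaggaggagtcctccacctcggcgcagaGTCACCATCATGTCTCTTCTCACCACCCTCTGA

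Srsf3-002 had 70 and 157 reads, a log2 ratio of 0.73 (0.31 to 1.15). The most-read retained-intron form, Srsf3-003, had 80 and 127 reads and a log2 ratio of 0.23 (-0.19 to 0.65), and Srsf3-004 had 12 and 18 reads with 0.15 (-0.99 to 1.33). The coding Srsf3-001 had only 8 and 26 reads, with a log2 ratio of 1.26 (0.075 to 2.61). Both the poison-exon form and the coding form therefore had a lower bound above 0, and neither retained-intron form did. The poison exon also lies inside exons of Srsf3-003 and Srsf3-004, so that reads within it match all 3 annotations.

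**Figure D2:**
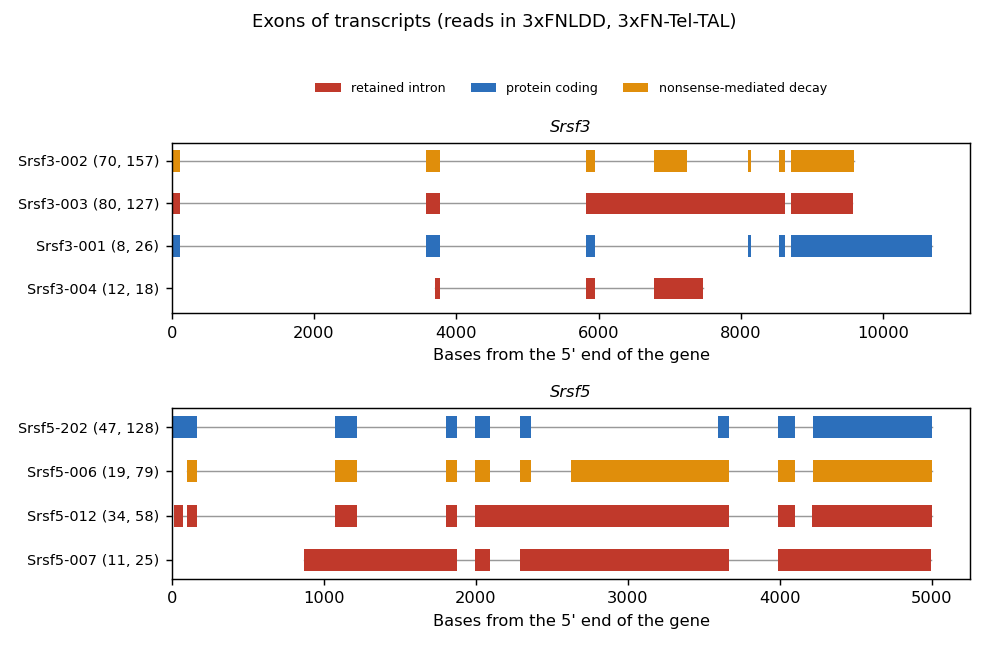
Exons (boxes) and introns (lines) of the Srsf3 and Srsf5 transcripts with at least 20 reads, drawn to scale in bases from the 5′ end of the gene and coloured by annotated type, with their reads in 3xFNLDD and 3xFN-Tel-TAL in brackets. The extra exon of Srsf3-002 falls in an intron of the coding form Srsf3-001 and inside longer exons of the retained-intron forms Srsf3-003 and Srsf3-004. The long exon of Srsf5-006 extends an exon of the coding form Srsf5-202 into the intron before it. It lies inside longer exons of the retained-intron forms Srsf5-012 and Srsf5-007.

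Srsf1, on the forward strand of chromosome 11 (87860875 to 87867257), encodes the founding member of the SR family, known for its effect on the choice of 5′ splice sites. Srsf1 had 136 reads (18.9 RPM) in the control and 267 (27.3 RPM) with 3xFN-Tel-TAL, a log2 ratio of 0.53 (0.23 to 0.84), 0.17 above the median gene symbol. By annotated type Srsf1 was almost wholly coding, at 97.1% and 97.4% of its reads, and its retained-intron transcripts had 1 and 5 reads. The annotated type hides unspliced sequence here, since the most-read form, Srsf1-003, is listed as coding although its last exon (87862545 to 87864992) runs through 196 bases that are an intron in Srsf1-001. To show this, the coding sequences of both forms are printed from base 524 to base 606, with 30 bases before the first difference in lower case and the 53 bases from it in capitals. The capitals of Srsf1-003 end at its own stop codon TAA.
Srsf1-001: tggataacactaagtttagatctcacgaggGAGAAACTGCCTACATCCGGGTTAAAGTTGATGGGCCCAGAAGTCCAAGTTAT
Srsf1-003: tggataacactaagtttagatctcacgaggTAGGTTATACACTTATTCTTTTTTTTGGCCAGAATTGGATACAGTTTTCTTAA

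Srsf1-003 had 85 and 168 reads, a log2 ratio of 0.54 (0.16 to 0.94). The form without this intron, Srsf1-001, had 44 and 85 reads and a log2 ratio of 0.51 (-0.031 to 1.07). The log2 ratios of both forms lay well inside each other's intervals. An antisense transcript, Gm11508, shares 98 of the 5710 exon bases of Srsf1. The kit does not mark strand, so reads there cannot be told apart.

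Srsf2, on the reverse strand of chromosome 11 (116711215 to 116714408), encodes an SR protein that stays in the nucleus and is widely used as a marker of speckles. Srsf2 had the most reads of the 10 members in the control, 261 (36.2 RPM), and 388 (39.7 RPM) with 3xFN-Tel-TAL. The log2 ratio of 0.13 (-0.098 to 0.36) was the lowest of the group, at -0.24 relative to the median gene symbol. Srsf2 was the only member whose upper bound lay below the median gene symbol. How often this held among all gene symbols was not counted. Its coding form Srsf2-001 (183 and 276 reads) and its retained-intron form Srsf2-003 (77 and 110 reads) were close in log2 ratio, at 0.15 (-0.12 to 0.43) and 0.075 (-0.36 to 0.51). Mfsd11, on the opposite strand, shares 293 of the 2961 exon bases of Srsf2 and had 52 and 65 reads.

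Srsf7, on the reverse strand of chromosome 17 (80599429 to 80606629), encodes an SR protein with a zinc knuckle that, like Srsf3, can act in mRNA export. A single coding transcript, Srsf7-202, was listed, with 60 reads (8.33 RPM) in the control and 100 (10.2 RPM) with 3xFN-Tel-TAL. Its log2 ratio was 0.30 (-0.18 to 0.78), or -0.070 relative to the median gene symbol. Reads on introns or on a poison exon of Srsf7 had no transcript of their own in these counts.

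Srsf11, on the reverse strand of chromosome 3 (157673437 to 157699603), encodes an SR-related protein that contacts the factors bound at 3′ splice sites. Srsf11 had 177 reads (24.6 RPM) in the control and 290 (29.7 RPM) with 3xFN-Tel-TAL, a log2 ratio of 0.27 (-0.0022 to 0.55), or -0.095 relative to the median gene symbol. Most reads lay on a pair of retained-intron transcripts at the 5′ part of the gene. Srsf11-004 had 56 and 80 reads with a log2 ratio of 0.075 (-0.44 to 0.59), and Srsf11-003 had 53 and 81 reads with 0.17 (-0.35 to 0.70). The coding Srsf11-014 had 33 and 69 reads with 0.62 (0.0059 to 1.27). Among the 4 Srsf11 transcripts with at least 20 reads, it was the only one with a lower bound above 0. The other coding form, Srsf11-002, had 28 and 40 reads with 0.075 (-0.66 to 0.83), so the coding forms of Srsf11 did not share 1 value.

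Tra2b, on the reverse strand of chromosome 16 (22244622 to 22266078), encodes an SR-like splicing activator that binds purine-rich enhancers and carries an arginine- and serine-rich region at each end. Tra2b had 63 reads (8.74 RPM) in the control and 115 (11.8 RPM) with 3xFN-Tel-TAL, a log2 ratio of 0.43 (-0.027 to 0.90), 0.061 above the median gene symbol. Its transcripts spread more widely than those of any other member, from the lowest to the highest log2 ratio of all 28 member transcripts with at least 20 reads. The retained-intron form Tra2b-002, the most-read form, had 31 and 40 reads and a log2 ratio of -0.072 (-0.79 to 0.65). The full coding form Tra2b-001 had 21 and 32 reads with 0.17 (-0.67 to 1.04). The shorter coding form Tra2b-006 had 7 and 37 reads with a log2 ratio of 1.96 (0.78 to 3.37). The interval of Tra2b-006 did not overlap that of Tra2b-002, and it rests on 7 reads in 3xFNLDD.

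Both coding forms share the same reading frame, and the shorter one begins at a later start codon. Tra2b-006 lacks the first 300 bases of the coding sequence of Tra2b-001. Bases 121 to 330 of Tra2b-001 are printed to show what is missing, with the last 180 of the absent bases in capitals and the next 30 bases, which are the first 30 of Tra2b-006, in lower case. The capitals hold codons of the arginine- and serine-rich region near the start of the protein. The coding lengths are 867 bases for Tra2b-001 and 567 bases for Tra2b-006.
Tra2b-001: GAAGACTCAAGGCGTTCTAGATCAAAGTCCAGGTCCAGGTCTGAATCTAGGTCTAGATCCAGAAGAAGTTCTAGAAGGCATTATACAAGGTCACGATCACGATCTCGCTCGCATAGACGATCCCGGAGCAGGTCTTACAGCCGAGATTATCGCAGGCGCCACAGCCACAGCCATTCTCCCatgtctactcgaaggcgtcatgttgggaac
Tra2b-006: atgtctactcgaaggcgtcatgttgggaac

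Clk1, on the reverse strand of chromosome 1 (58467033 to 58480910), encodes a dual-specificity kinase of SR proteins. Clk1 had 50 reads (6.94 RPM) in the control and 131 (13.4 RPM) with 3xFN-Tel-TAL. The log2 ratio of 0.95 (0.47 to 1.45) was the highest of the 10 genes, 0.58 above the median gene symbol, and placed Clk1 at percentile 83.1 of all gene symbols. The retained-intron form Clk1-006 had 16 and 46 reads with a log2 ratio of 1.08 (0.24 to 2.0). The coding Clk1-001 had 12 and 36 reads with 1.15 (0.17 to 2.22). Another retained-intron form, Clk1-003, had 16 and 30 reads with 0.47 (-0.45 to 1.44), and Clk1-002 had 6 and 14 reads with 0.78 (-0.69 to 2.45). All 4 Clk1 transcripts with at least 20 reads thus had more RPM in 3xFN-Tel-TAL, coding and retained-intron forms alike, with wide intervals.

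Clk4, on the forward strand of chromosome 11 (51075232 to 51095268), encodes a closely related kinase of the same family. Clk4 had 58 reads (8.05 RPM) in the control and 102 (10.4 RPM) with 3xFN-Tel-TAL, a log2 ratio of 0.37 (-0.10 to 0.87), 0.0071 above the median gene symbol. The values of the kinases differed, and their intervals overlap. The retained-intron form Clk4-014 spans 4 introns of the coding form and took 73.8% of all Clk4 reads. It had 42 and 76 reads with a log2 ratio of 0.42 (-0.15 to 0.995). The coding Clk4-001 had 9 and 16 reads with 0.39 (-0.87 to 1.75), so retained-intron and coding forms of Clk4 differed by less than counting error.

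**Figure D3:**
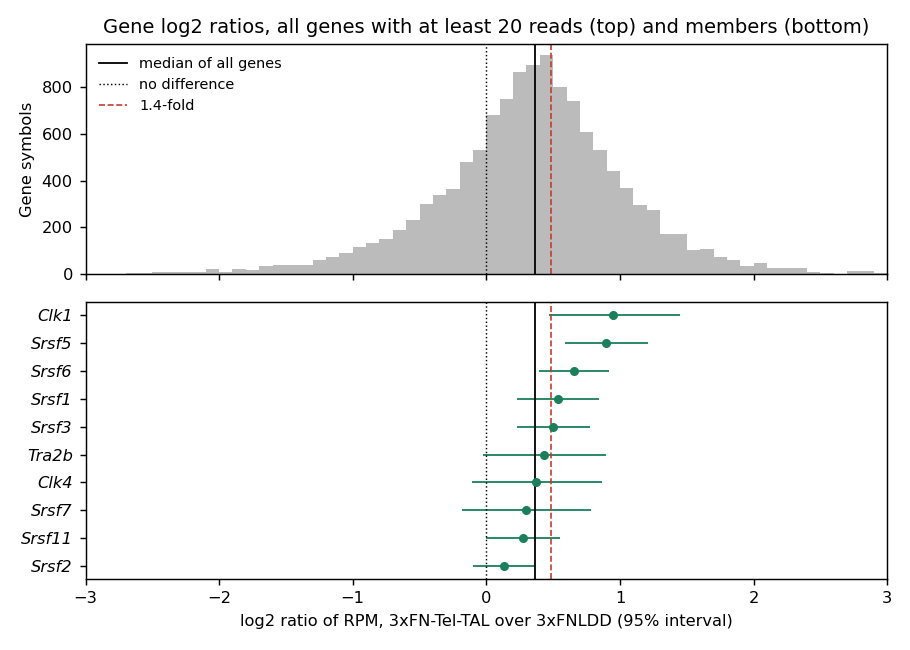
Log2 ratios of RPM (3xFN-Tel-TAL over 3xFNLDD). The upper panel counts all gene symbols with at least 20 reads, and the lower panel gives each member with its 95% interval. The lines mark no difference, the median gene symbol (0.37) and 1.4-fold. The intervals of Srsf5, Srsf6 and Clk1 lie above the median gene symbol, that of Srsf2 lies just below it and the other 6 include it. The share of all gene symbols with an interval clear of the median was not counted.

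Levels were compared between genes as RPM per kilobase of transcript. Srsf2 stood highest in both libraries, at 19.4 RPM per kilobase (counting SE 1.2) in 3xFNLDD and 21.2 (1.08) in 3xFN-Tel-TAL. In 3xFNLDD the order continued with Srsf11 (14.5), Srsf6 (12.3), Srsf3 (10.3), Srsf5 (8.67), Srsf1 (6.13), Tra2b (5.28), Clk4 (4.05), Srsf7 (3.68) and Clk1 (2.85). In 3xFN-Tel-TAL the order was Srsf2, Srsf6 (18.4), Srsf11 (16.6), Srsf5 (16.1), Srsf3 (14.7), Srsf1 (9.07), Tra2b (7.44), Clk1 (6.09), Clk4 (4.83) and Srsf7 (4.52). Neighbours in these orders differed beyond counting error only at Srsf2 over Srsf11 and Srsf5 over Srsf1 in 3xFNLDD, and at Srsf3 over Srsf1 in 3xFN-Tel-TAL. Clk1 was the lowest of the 10 in 3xFNLDD and stood above Clk4 and Srsf7 in 3xFN-Tel-TAL.

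The transcripts of all 10 genes were then compared by annotated type. Of the 55 member transcripts, 28 had at least 20 reads in both libraries together. Among these, 13 were above 1.4-fold, against 44.2% of the 16468 transcripts with as many reads, and 0 were below 1/1.4-fold, against 11.1%. The median log2 ratio was 0.46 over the member transcripts and 0.39 over all transcripts. The lower bound was above 0 for 11 of the 28, against 30.6% of all transcripts, and 6 were above 2-fold, against 18.8%.

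By annotated type, coding forms of the members had a higher median log2 ratio than retained-intron forms. Of 13 coding transcripts 8 were above 1.4-fold, with a median log2 ratio of 0.54, and the background among all coding transcripts was 44.9%. Of 12 retained-intron transcripts, in which 25.9 to 87.1% of the sequence lies in introns of the longest coding form, only 3 were above 1.4-fold, with a median of 0.28 and a background of 46.1%. The median of the retained-intron forms was thus 0.26 lower than that of the coding forms, whereas over all transcripts it was 0.026 higher. The size of this difference depended on the choice of transcripts, at -0.41 with all that had at least 1 read and -0.16 with classes set by exon structure. By structure, a form counted as retained-intron when its exons covered a whole intron of the longest coding form. This moved the coding Srsf1-001 and Srsf1-003 into the retained-intron class and left out annotated retained-intron forms such as Srsf11-004 and Tra2b-002. The 2 decay forms, Srsf3-002 and Srsf5-006, were both above 1.4-fold, against a background of 45%. They hold intron sequence too: 23.8% of Srsf3-002 and 40.4% of Srsf5-006 lie in introns of the longest coding form. The contrast of retained-intron with coding forms is therefore one of annotated types, and was not made for intron sequence as such. Summed over all 55 transcripts, retained-intron forms had 445 and 721 reads, a log2 ratio of 0.26 (0.084 to 0.43). Coding forms had 615 and 1217 reads, a log2 ratio of 0.54 (0.40 to 0.69), and decay forms 97 and 246 reads, a log2 ratio of 0.90 (0.56 to 1.26). The intervals of retained-intron and decay forms did not overlap, and those of retained-intron and coding forms overlapped slightly. Transcripts of 1 gene share sequence, so these are not independent measurements. The exons that set the decay forms apart from the coding forms lie inside exons of retained-intron forms, so reads in them match both classes. How such reads were assigned is not given in the sources used here, and the intervals do not cover it.

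**Figure D4:**
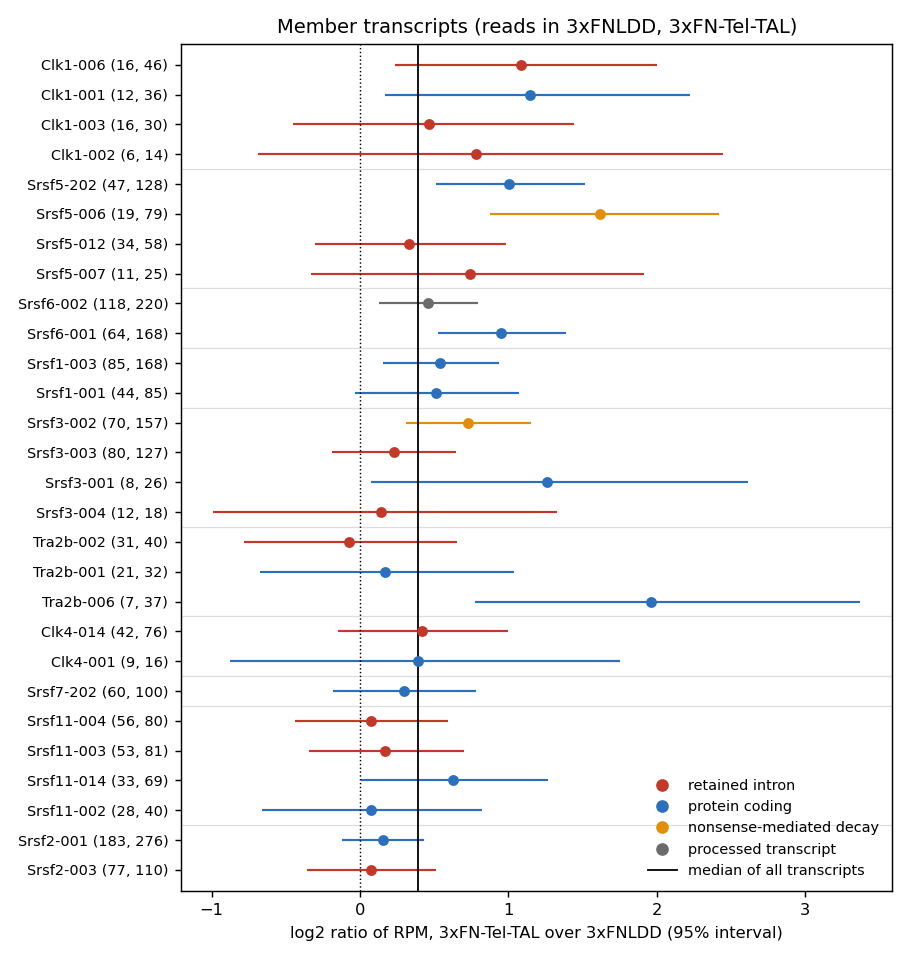
Log2 ratio of RPM (3xFN-Tel-TAL over 3xFNLDD) with its 95% interval for the 28 member transcripts with at least 20 reads, grouped by gene and coloured by annotated type, with their reads in 3xFNLDD and 3xFN-Tel-TAL in brackets. Tra2b-006 and Srsf5-006 stand furthest to the right, and Tra2b-002 is the only transcript below 0.

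A comparison within a gene does not depend on the scaling of the libraries. For the 7 members with at least 20 reads in each class, the odds of a retained-intron against a coding read in 3xFN-Tel-TAL were divided by the odds in 3xFNLDD. Reads of decay forms and processed transcripts entered neither class. The odds ratio was below 1 in all 7, against a background of 47.4% of the 1486 genes of any kind with as many reads. Every one of the 7 intervals included 1, so in no single gene was the difference larger than counting error. The retained-intron share of Srsf3 was 92.1% in 3xFNLDD and 84.8% in 3xFN-Tel-TAL, an odds ratio of 0.48 (0.18 to 1.15). For Tra2b the shares were 52.5% and 37.8%, with an odds ratio of 0.55 (0.28 to 1.09). These 2 genes had the lowest odds ratios, and Srsf3 rests on few coding reads. Srsf5 went from 45.0% to 37.2% with an odds ratio of 0.73 (0.44 to 1.21). Srsf11, at 63.6% and 56.1%, had the same odds ratio of 0.73 with a narrower interval (0.49 to 1.09). No retained-intron form of Tra2b or Srsf11 in the counts covers a whole intron of the longest coding form. In each gene, the most-read retained-intron form ends before 1 of the coding forms with at least 20 reads begins. For Tra2b and Srsf11 the odds ratio thus partly compares different parts of the gene, and it does not measure wholly retained introns. Clk1 had 76.0% and 71.4%, an odds ratio of 0.79 (0.34 to 1.76). Srsf2 and Clk4 were nearest to 1. Their shares were 29.6% and 28.5% for Srsf2, with an odds ratio of 0.95 (0.66 to 1.36), and 84.2% in both libraries for Clk4, with 0.996 (0.36 to 2.61). The median log2 odds ratio was -0.45 over these members and 0.038 over the 1486 genes.

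**Figure D5:**
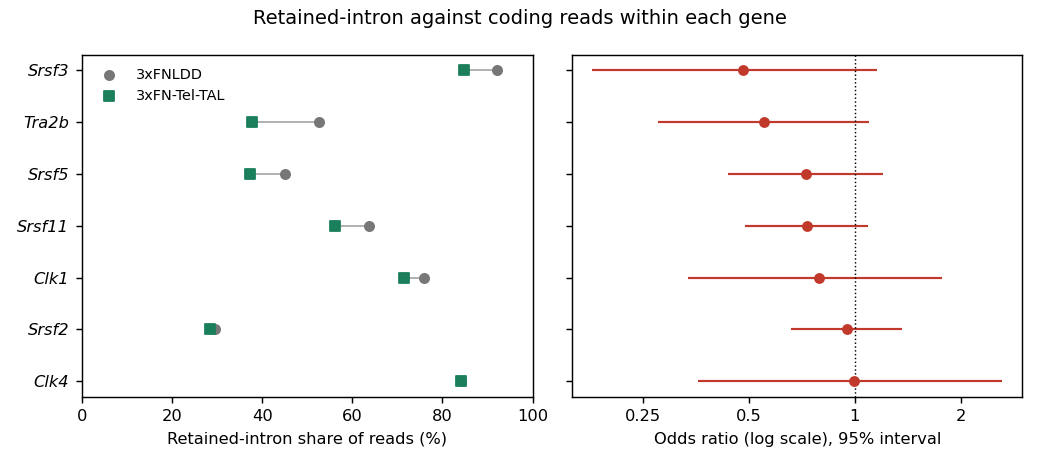
Left, retained-intron share of the retained-intron and coding reads of each gene in 3xFNLDD (circles) and 3xFN-Tel-TAL (squares). Right, odds ratio of 3xFN-Tel-TAL against 3xFNLDD on a log axis, with its 95% interval. The odds ratio is below 1 for all 7 genes, from 0.48 for Srsf3 to 0.996 for Clk4, and every interval includes 1.

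Retained-intron annotations took a large part of the member reads in both libraries. Their share of retained-intron and coding reads was 42.0% (39.0 to 45.0) in 3xFNLDD and 37.2% (35.0 to 39.4) in 3xFN-Tel-TAL, by the exact Clopper-Pearson interval. Over all other transcripts together the share was 9.84% and 10.5%. Those sums include many genes with no retained-intron annotation at all. Among the 1486 genes with at least 20 reads in each class, the median share was 38.5% and 41.5%, and 6 of the 7 members were above it in 3xFNLDD and 4 of 7 in 3xFN-Tel-TAL. Srsf6 and Srsf7 have no retained-intron transcript in the counts and enter the sums only with their coding reads.

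Other splicing genes were read in the same way. Of 26 further SR and speckle genes, 25 had at least 20 reads, Srsf12 being the exception. Of these, 11 were above 1.4-fold and 0 below 1/1.4-fold, against 41.1% and 11.5% of all gene symbols. Their median log2 ratio was 0.44. The highest with at least 100 reads were Ddx39b, a helicase of spliceosome assembly and mRNA export, with 313 and 719 reads and 0.76, and Srsf10, an SR-like splicing factor, with 85 and 189 reads and 0.71. The lowest were Prpf4b, a kinase of the spliceosome, with 98 and 130 reads and -0.032, and Srrm1, a speckle coactivator of splicing, with 245 and 328 reads and -0.019. The remaining Clk genes, Clk2 and Clk3, had log2 ratios of 0.58 (0.17 to 0.99, from 76 and 154 reads) and 0.075 (-0.52 to 0.68, from 42 and 60 reads). The intervals of Clk2, Clk3 and Clk4 included the median gene symbol, and that of Clk1 lay above it.

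The hnRNP genes encode RNA-binding proteins that often counter SR proteins at exons. Of 20 with at least 20 reads, 9 were above 1.4-fold and 1 below 1/1.4-fold, against 41.1% and 11.5% of all gene symbols. Their median was 0.45. Hnrnph2 (41 and 119 reads, 1.10) and Hnrnpa0 (103 and 232 reads, 0.73) were highest, and Hnrnpu (394 and 548 reads, 0.036) and Hnrnpr (65 and 92 reads, 0.061) lowest among those with at least 100 reads. The medians of the other SR and speckle genes, the hnRNP genes and the members thus all lay between 0.44 and 0.46 on the log2 scale.

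Abundant mRNAs that are mostly spliced and cytoplasmic served as a further comparison. Of 12, 4 were above 1.4-fold and 0 below 1/1.4-fold, against 41.1% and 11.5% of all gene symbols. Their median was 0.37, that of all gene symbols. The highest were the tubulin genes Tuba1b (112 and 387 reads, 1.35) and Tubb5 (209 and 529 reads, 0.90). The lowest were the elongation factor genes Eef1a1 (645 and 758 reads, -0.21) and Eef2 (538 and 635 reads, -0.20). No member reached the log2 ratio of Tuba1b, and none was as low as Eef1a1 or Eef2. With TMM the medians were 0.095 for the members, 0.073 for the other SR and speckle genes, 0.079 for the hnRNP genes and -0.0030 for the cytoplasmic mRNAs. Of the 25, 20 and 12 genes of the last 3 lists, 1, 1 and 2 were then above 1.4-fold, against 20.4% of all gene symbols. Below 1/1.4-fold were 1, 1 and 2, against 22.4%.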

How the data were processed

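The authors deposited, for 2 libraries (1 per condition), a read count for each Ensembl transcript and its RPM (reads per 1000000 reads of the library). The submitters' processing notes name cutadapt and GRCm38/mm10. The aligner, the counting program and its use of strand are not given in the sources used here. Log2 ratios were recomputed from the deposited counts and library totals, without a pseudocount, and gene values are sums over transcripts of a symbol. Intervals are exact 95% Clopper-Pearson or conditional intervals (scipy 1.17.1, pandas 2.3.3, numpy 2.4.6, Python 3.11.15). Transcript types, positions and coding sequences came from GENCODE M1 (Ensembl 65, NCBIM37) by transcript ID, which matched 55 of 55 member transcripts and 45887 of 48876 in all. That build differs from the one named in the notes, so no sequence was read by coordinates.

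The members and the gene lists were chosen with earlier results of these data known. Named were all members, the most-read transcript and most-read retained-intron transcript of each, other transcripts with at least 20 reads where a gene is described, and the 2 highest and 2 lowest genes with at least 100 reads of each other list. Clk2 and Clk3 were added after their values were seen. Alternatives were TMM (edgeR 4.0.16, R 4.3.3, transcripts with at least 10 reads), totals that omit the 11 RNAs over 1% of either library, other read minimums, a pseudocount of 1, a fold of 2, the lower bound as the criterion, and other transcript classes. The computation was tested on simulated data. No test between conditions was possible.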

Additional observations from a re-analysis of the deposited data

How the results depend on the processing

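No paired analysis was possible because neither condition has a second library, so none could be left out in turn either. With TMM the median log2 ratio of the members was 0.095 instead of 0.46, 2 instead of 5 of the 10 genes (20.4% of all) and 7 instead of 13 of the 28 transcripts (24.6% of all) were above 1.4-fold, and the medians were 0.073, 0.079 and -0.0030 for the other SR and speckle, hnRNP and cytoplasmic lists, with 1, 1 and 2 genes above 1.4-fold instead of 11, 9 and 4. Over all gene symbols 5148 were above 1.4-fold and 1435 below 1/1.4-fold, and with TMM 2555 and 2810. Totals without RNAs above 1% of a library shifted every log2 ratio by -0.32 and left 2 genes and 7 transcripts above 1.4-fold, against 22.6% of all genes and 26.8% of all transcripts. A fold of 2 left 0 genes and 6 transcripts (15% and 18.8% of all), and the lower bound above 1.4-fold 1 gene and 4 transcripts (10.1% and 9.9%). A minimum of 100 reads gave 6 of 14 transcripts (43.7% of all), and a minimum of 1 read, with 0.5 added to both counts, gave 26 of 55 (41.2% of all). Both changes in number follow the number of transcripts tested.

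The odds ratios do not depend on scaling. Set against all other transcripts, decay forms included, 6 of 7 were below 1, the exception being Clk4 at 1.04. No alternative counted decay forms by their annotation with the retained-intron forms. Without the most-read retained-intron transcript of each gene 5 of 5 were below 1, and Srsf2 and Tra2b gave no value. With the class set by exon structure, a choice made after seeing the data, 5 of 5 were below 1, and Srsf11 and Tra2b gave no value. The share of all genes below 1 was not computed for these alternatives, so only the main setting has a background. With TMM the log2 ratios of Srsf2 (-0.24), Srsf7 (-0.072) and Srsf11 (-0.096) fell below 0. None of these genes had an interval clear of 0 before. Depth limits single transcripts most: at 20 reads, as for Clk1-002, the interval ran from -0.69 to 2.45.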

Other observations

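The 27 member transcripts with fewer than 20 reads together held 37 reads in the control and 72 in the 3xFN-Tel-TAL library, with at most 14 reads each. Of these, 11 were annotated as retained-intron forms, 5 of them of Clk4. In 3xFNLDD 9 of them had 0 reads, and in 3xFN-Tel-TAL 7 had 0 reads, so no ratio is given for them singly. The full-length coding form Srsf11-001 was among them, with 0 and 4 reads, as was Srsf1-006, with 3 and 7 reads. The coding reads of Srsf11 and Srsf1 therefore lay on other forms.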
